A study of Danio rerio with 4 samples.

Results

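The genes described here encode the matrix metalloproteases (Mmp), the membrane-bound Adam proteases, the secreted Adamts proteases with their Adamts-like relatives (Adamtsl), and the tissue inhibitors of metalloproteases (Timp). They were chosen by symbol, as every gene whose Ensembl symbol begins with mmp, timp, adamts, adamtsl or adam followed by its number. The tables listed 59 such genes among 20269 genes in all. Of these, 46 had a mean of at least 0.5 FPKM (fragments scaled to transcript length and library size) over the 4 libraries and are described below, against 15425 of all genes. They comprise 14 of 19 Mmp genes, 3 of 4 Timp genes, 12 of 16 Adam genes, 14 of 17 Adamts genes and all 3 Adamtsl genes. The other 13 did not reach 1 FPKM in any library. Just inside the threshold were mmp25b, mmp17a and adamts14, with means of 0.536, 0.589 and 0.616 FPKM. Just outside were adam9b at 0.36 FPKM, a timp4 gene (ENSDARG00000102617) at 0.344 FPKM and mmp24 at 0.340 FPKM.

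The RNA came from hearts of zebrafish larvae at 5 days post-fertilization (dpf), and each of the 4 groups was 1 library. The injured SIS3 group and the injured DMSO group had their ventricles injured with 5 mM metronidazole (MTZ) for 4 h, given at 72 hours post-fertilization (hpf), and are labelled as taken 2 days after treatment. The uninjured SIS3 group and the uninjured DMSO group carry the label uninjured, and no source used here says whether these larvae also received MTZ. SIS3, an inhibitor of Smad3 phosphorylation, was present at 2 µM, and DMSO, its solvent control, at 0.2%, between 76 and 124 hpf. All 4 groups carried Tg(vmhc:mCherry-NTR), in which the ventricular myosin promoter vmhc drives nitroreductase (NTR), an enzyme that turns MTZ into a toxin, in ventricular cardiomyocytes. NTR is made where that promoter is active, and how many hearts were pooled in a library is not given.

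Metalloproteases use a zinc ion to cut proteins outside the cell. Most are made as inactive precursors, some are held at the cell surface and some are secreted, and Timp proteins bind their active sites and block them. In an injured heart these enzymes can degrade collagen, fibronectin and proteoglycans, release growth factors and shed receptors, while Timp proteins limit that turnover. Smad3 carries signals of transforming growth factor beta into the nucleus, a pathway known to regulate matrix genes and their proteases.

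All levels are FPKM scaled between libraries, and a change is a difference of log2(scaled FPKM + 1), on which genes of low level move less than their ratio. A member counts as higher or lower from 2-fold upwards on that scale, so levels of a few FPKM can differ by more than 2-fold and not be counted. Since each group is 1 library, no difference has a replicate error and none was tested, so every comparison below is between libraries. The libraries listed 15691 to 18207 genes each, and their read depth is unknown. Cardiomyocyte markers summed to 11013 FPKM in injured SIS3 hearts, 11082 in injured DMSO hearts, 11416 in uninjured SIS3 hearts and 12989 in uninjured DMSO hearts, so each library held abundant heart muscle RNA. The sums include nppa and nppb, at 3448 and 1829 FPKM in injured DMSO hearts against 1063 and 109 in uninjured DMSO hearts. In SIS3 they were at 3540 and 1543 FPKM in injured hearts against 1086 and 100 in uninjured hearts. Of the 16 measured, 3 were at least 2-fold higher and 5 lower with injury in DMSO, against 6.63% and 9.93% of all genes. In SIS3, 4 were higher and 6 lower, against 6.26% and 7.45%. The sums therefore do not show equal heart muscle RNA in the 4 libraries. Of the same 16, cmlc1 was not listed in injured SIS3 hearts and myh6 was not listed in the uninjured libraries. RNA of other tissues was present as well: liver markers summed to 4186 FPKM in injured SIS3 hearts, 581 in injured DMSO hearts, 622 in uninjured SIS3 hearts and 1120 in uninjured DMSO hearts, and neural and eye markers to 8.88 FPKM in injured SIS3 hearts, 0.87 in injured DMSO hearts, 144 in uninjured SIS3 hearts and 237 in uninjured DMSO hearts. Exocrine pancreas and intestine markers summed to 355 FPKM in injured SIS3 hearts, 52.2 in injured DMSO hearts, 1490.4 in uninjured SIS3 hearts and 1184 in uninjured DMSO hearts. Skin and epithelium markers summed to 2020 FPKM in injured SIS3 hearts, 1923 in injured DMSO hearts, 1703 in uninjured SIS3 hearts and 3224 in uninjured DMSO hearts. Of these sums, krt18a.1 alone gave 1109 FPKM in injured SIS3 hearts, 999 in injured DMSO hearts, 112 in uninjured SIS3 hearts and 137 in uninjured DMSO hearts. Of the 15 skin and epithelium markers measured, 1 was higher and 7 lower with injury in DMSO. In SIS3, 2 were higher and 5 lower, against the same shares of all genes. In such bulk RNA, fewer cells of a type and less RNA per cell cannot be told apart.

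With injury in DMSO, members of all 5 families passed 2-fold. Of the 46, 11 were at least 2-fold higher in injured DMSO hearts than in uninjured DMSO hearts, 23.9% against 6.63% of all genes compared. Another 4 were at least 2-fold lower, 8.70% against 9.93% of all genes, and 16.6% of all genes passed 2-fold in either direction. The 11 were adam8a, adam8b, adam9a, adamts12, adamts3, adamts8a, adamtsl7, mmp14a, mmp2, timp2a and timp2b, and the 4 were adam23a, adamts17, adamtsl5 and mmp17a. The median log2 change was 0.21 over the members and -0.02 over all genes. Without scaling, the median of all genes moved by 0.14 in that comparison, and by 0.03 for injury in SIS3, -0.04 for SIS3 after injury and 0.06 for SIS3 without injury.

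Injury in SIS3 gave similar totals. Of the members, 10 were at least 2-fold higher in injured SIS3 hearts than in uninjured SIS3 hearts, 21.7% against 6.26% of all genes, and 3 were lower, 6.52% against 7.45%, with 13.7% of all genes past 2-fold in either direction. The 10 were adam8a, adam8b, adamts3, adamts8a, adamtsl7, mmp13a, mmp28, mmp9, timp2a and timp2b, and the 3 were adam23a, adamts17 and adamts7. The median log2 change was 0.17 over the members and -0.02 over all genes. The 2 injury comparisons share no library. Of their members called higher, 7 were higher in both, which is 63.6% of those called in DMSO and 70% of those called in SIS3. Over all genes the 485 higher in both were 47.4% and 50.2% of the calls. Of the members lower, adam23a and adamts17 were lower in both, 50% of those called in DMSO and 66.7% of those called in SIS3, near the 47.1% and 62.8% over all genes.

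**Figure D1:**
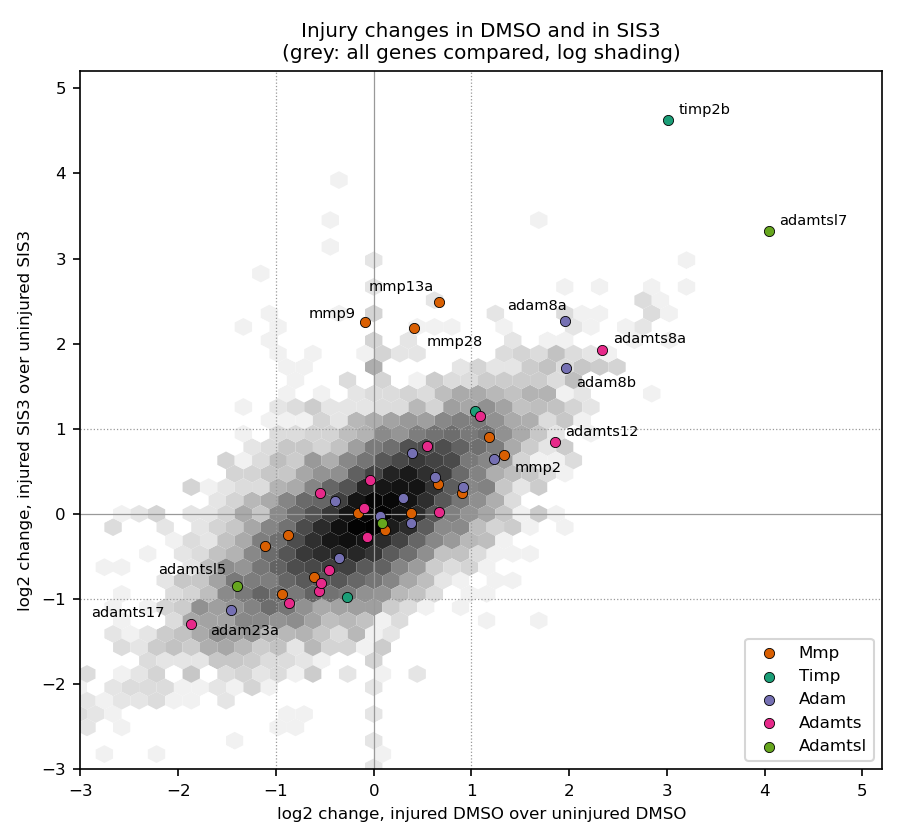
Log2 change with injury of each of the 46 genes, in DMSO on the x axis and in SIS3 on the y axis. Grey hexagons with log shading count the 15425 genes compared, of which those beyond the drawn axes are not shown. Dotted lines mark 2-fold. timp2b and adamtsl7 lie far out on both axes, while mmp9, mmp13a and mmp28 lie high on the SIS3 axis and within 2-fold on the DMSO axis.

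SIS3 had fewer members past 2-fold. After injury, 4 members were at least 2-fold higher in injured SIS3 hearts than in injured DMSO hearts (mmp9, mmp28, timp2b and mmp13a), 8.70% against 3.55% of all genes. One member, adamts12, was at least 2-fold lower, 2.17% against 1.37%. In either direction 4.92% of all genes passed 2-fold. The median log2 change was -0.01 over the members and 0.00 over all genes. Without injury, none of the 46 reached 2-fold in uninjured SIS3 hearts against uninjured DMSO hearts, where 2.11% of all genes were higher 1.55% lower and 3.66% past 2-fold in either direction. The changes of the members ran between -0.78 and 0.92, with 20 above 0, and their median was -0.09 against -0.01 over all genes. With 0.1 FPKM added in place of 1, 2 members were higher and 3 lower without injury, against 5.10% and 3.99% of all genes. First-exon events alone gave 1 of 43 lower without injury, against 2.13% of all genes. The calls depend on the FPKM added before the logarithm. With 5 FPKM added, the changes of mmp14a (0.96) and timp2a (0.95) with injury in DMSO, of mmp28 with injury in SIS3 (0.95) and with SIS3 after injury (0.74), and of mmp13a with SIS3 after injury (0.82) fell short of 2-fold. So did those of adam9a, adam23a, adamts3, adamts7, adamts12, adamts17, adamtsl5 and mmp17a wherever they were called.

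**Figure D2:**
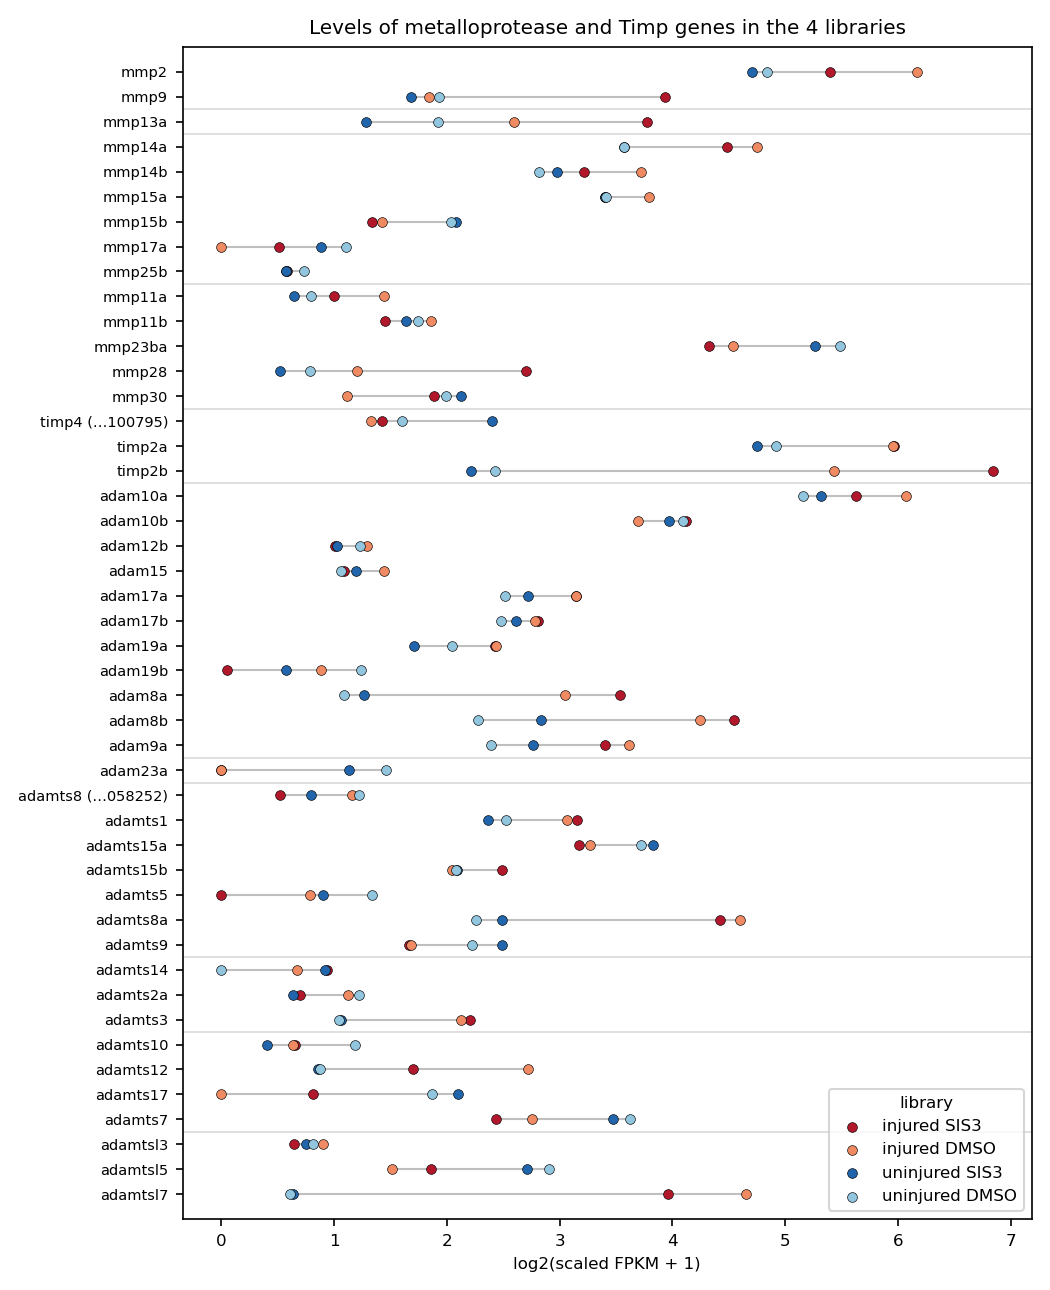
Level of each of the 46 genes on a log2(scaled FPKM + 1) axis, with 1 point for each library and genes grouped by role from gelatinases at the top to Adamts-like genes at the bottom. timp2b and adamtsl7 span the widest ranges, with both injured libraries right of both uninjured ones.

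Among the gelatinases, which cut denatured collagen and basement membrane, mmp2 (ENSDARG00000017676, GRCz10 chromosome 7, bases 35138573 to 35161424, minus strand) was at 41.1 FPKM in injured SIS3 hearts, 71.1 in injured DMSO hearts, 25.1 in uninjured SIS3 hearts and 27.6 in uninjured DMSO hearts. It was highest in injured DMSO hearts, and both injured libraries stood above both uninjured ones. The log2 change of mmp2 with injury was 1.34 in DMSO and 0.69 in SIS3, and its change with SIS3 after injury was -0.78, short of 2-fold. The other gelatinase, mmp9 (ENSDARG00000042816, chromosome 8, bases 24260273 to 24274708, plus strand), was at 14.3 FPKM in injured SIS3 hearts, 2.59 in injured DMSO hearts, 2.21 in uninjured SIS3 hearts and 2.81 in uninjured DMSO hearts. Only injured SIS3 hearts stood apart, 2.09 above injured DMSO hearts and 2.26 above uninjured SIS3 hearts on the log2 scale, and the change with injury in DMSO was -0.09, or 0.08 without scaling.

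The collagenase mmp13a (ENSDARG00000012395, chromosome 10, bases 38649905 to 38667368, plus strand) cuts fibrillar collagen. Its level was 12.7 FPKM in injured SIS3 hearts, 5.03 in injured DMSO hearts, 1.43 in uninjured SIS3 hearts and 2.80 in uninjured DMSO hearts, the injured libraries being the higher ones. The log2 change of mmp13a was 2.49 with injury in SIS3, 0.67 with injury in DMSO, 1.18 with SIS3 after injury and -0.64 with SIS3 without injury. mmp28, a secreted protease known as epilysin, was at 5.52 FPKM in injured SIS3 hearts, 1.30 in injured DMSO hearts, 0.43 in uninjured SIS3 hearts and 0.73 in uninjured DMSO hearts, again highest in injured SIS3 hearts. On the log2 scale it was 1.51 higher with SIS3 after injury and 2.19 higher with injury in SIS3. Whether these members responded differently to injury in SIS3 and in DMSO was not tested.

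Macrophages and neutrophils are known sources of mmp9 and mmp13a, and the markers of these cells were set beside them. The 15 macrophage markers measured, of 20 listed, summed to 210 FPKM in injured SIS3 hearts, 299 in injured DMSO hearts, 60.7 in uninjured SIS3 hearts and 57.5 in uninjured DMSO hearts. Of them, 12 were at least 2-fold higher with injury in DMSO, against 6.63% of all genes. With injury in SIS3, 11 were higher and 1 lower, against 6.26% and 7.45%. With SIS3 after injury 1 was higher and 5 were lower, against 3.55% and 1.37%. The 6 neutrophil markers measured, of 11, summed to 295 FPKM in injured SIS3 hearts, 254 in injured DMSO hearts, 84.9 in uninjured SIS3 hearts and 95.9 in uninjured DMSO hearts, with 4 higher in each injury comparison and none past 2-fold with SIS3 after injury. No marker of either list was at 0 in any library. The liver list was at 4186 FPKM in injured SIS3 hearts and 581 in injured DMSO hearts. Of its 18 measured genes, 16 were at least 2-fold higher with SIS3 after injury, against 3.55% of all genes. The part of any of these cells in the levels of mmp9, mmp13a and mmp28 was not tested.

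Membrane-type metalloproteases act at the cell surface, and Mmp14 also activates Mmp2. mmp14a (ENSDARG00000002235, chromosome 7, bases 23853132 to 23878513, minus strand) was at 21.4 FPKM in injured SIS3 hearts, 25.9 in injured DMSO hearts, 10.9 in uninjured SIS3 hearts and 10.9 in uninjured DMSO hearts. Both injured libraries were above both uninjured ones, and the log2 change was 1.18 in DMSO and 0.91 in SIS3. Its paralog mmp14b was at 8.28 FPKM in injured SIS3 hearts, 12.2 in injured DMSO hearts, 6.85 in uninjured SIS3 hearts and 6.04 in uninjured DMSO hearts, with changes of 0.91 and 0.24. Without scaling, mmp14b passed 2-fold with injury in DMSO, at 1.105. Of the 6 membrane-type members, mmp17a was the one lower with injury in DMSO, at 0.43 FPKM in injured SIS3 hearts, 0 in injured DMSO hearts, 0.85 in uninjured SIS3 hearts and 1.16 in uninjured DMSO hearts, and it is not listed in injured DMSO hearts. The other 3, mmp15a, mmp15b and mmp25b, stayed within 2-fold in all 4 comparisons on the log2 scale with 1 FPKM added. The level of mmp15b was 2.12-fold lower in injured SIS3 hearts than in uninjured SIS3 hearts.

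Of the remaining Mmp genes, mmp23ba had the highest level. It was at 19.0 FPKM in injured SIS3 hearts, 22.3 in injured DMSO hearts, 37.4 in uninjured SIS3 hearts and 43.8 in uninjured DMSO hearts. Both injured libraries were lower, with log2 changes of -0.94 in DMSO and -0.94 in SIS3, short of 2-fold in both. mmp11a, mmp11b and mmp30 had no change past 2-fold on the log2 scale with 1 FPKM added, and mmp30 was at 2.70 FPKM in injured SIS3 hearts, 1.17 in injured DMSO hearts, 3.38 in uninjured SIS3 hearts and 2.99 in uninjured DMSO hearts.

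timp2a and timp2b, which both encode Timp2, were higher with injury in DMSO and in SIS3. timp2b (ENSDARG00000075261, chromosome 3, bases 57575916 to 57595951) was at 114 FPKM in injured SIS3 hearts, 42.3 in injured DMSO hearts, 3.65 in uninjured SIS3 hearts and 4.38 in uninjured DMSO hearts. Both injured libraries were far above both uninjured ones, and injured SIS3 hearts were the highest. Its ratio was 31.3 with injury in SIS3, 9.65 with injury in DMSO and 2.70 with SIS3 after injury. On the log2 scale these were 4.63, 3.01 and 1.41, and 13, 41 and 295 of the 15425 genes were higher by more. The entries of timp2b lie on both strands: the minus-strand first exon alone gave 111 FPKM in injured SIS3 hearts, 42.3 in injured DMSO hearts, 3.65 in uninjured SIS3 hearts and 4.38 in uninjured DMSO hearts, and the plus-strand entry gave 2.86 FPKM in injured SIS3 hearts and was not listed in the other libraries. With last-exon entries alone, which for timp2b exist only on the plus strand, its change with injury in DMSO was 0.00. Markers of other tissues were also higher with SIS3 after injury, 16 of 18 for liver, 5 of 7 for exocrine pancreas and intestine and 4 of 9 for skeletal muscle. So were 4 of 12 for neural and eye, 2 of 15 for skin and epithelium and 1 of 7 for cartilage and bone. Over all genes 3.55% were higher, and 1 skin and epithelium marker was lower. The part of these tissues in the level of timp2b and in the Timp sums was not tested.

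timp2a (ENSDARG00000061226, chromosome 12, bases 33889964 to 33934381, minus strand) was at 61.5 FPKM in injured SIS3 hearts, 61.2 in injured DMSO hearts, 26.0 in uninjured SIS3 hearts and 29.3 in uninjured DMSO hearts. The injured libraries were nearly equal and each about 2-fold above its uninjured library, with log2 changes of 1.21 in SIS3 and 1.04 in DMSO. Its difference with SIS3 after injury was 0.01. The described timp4 gene (ENSDARG00000100795) was at 1.69 FPKM in injured SIS3 hearts, 1.52 in injured DMSO hearts, 4.29 in uninjured SIS3 hearts and 2.04 in uninjured DMSO hearts. Its levels differed by more than 2-fold between some libraries, but its changes with 1 FPKM added, -0.98 with injury in SIS3 and 0.80 with SIS3 without injury, did not. timp3 was not analysed here.

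Because Timp proteins bind Mmp proteins, the summed levels of both were set side by side. The 14 Mmp genes summed to 140 FPKM in injured SIS3 hearts and 161 in injured DMSO hearts. In uninjured hearts they summed to 105 FPKM in SIS3 and 115 in DMSO. Without mmp2, the other 13 summed to 98.7 FPKM in injured SIS3 hearts and 89.97 in injured DMSO hearts. In uninjured hearts these 13 summed to 79.4 FPKM in SIS3 and 87.7 in DMSO. Injured SIS3 hearts were then the highest, so the order of the injured libraries in the Mmp sum rests on mmp2. The ratios that follow include mmp2. The 3 Timp genes summed to 177 FPKM in injured SIS3 hearts, 105 in injured DMSO hearts, 33.9 in uninjured SIS3 hearts and 35.7 in uninjured DMSO hearts. The ratio of Mmp to Timp was 0.788 in injured SIS3 hearts, 1.53 in injured DMSO hearts, 3.08 in uninjured SIS3 hearts and 3.23 in uninjured DMSO hearts, so it was lowest in injured SIS3 hearts. The Timp sum lacks timp3, so whether the ratio is above or below 1 has no meaning of its own. timp2b made up 64.4% of the Timp sum in injured SIS3 hearts, 40.2% in injured DMSO hearts, 10.8% in uninjured SIS3 hearts and 12.2% in uninjured DMSO hearts, and without it the ratio was 2.21 in injured SIS3 hearts, 2.57 in injured DMSO hearts, 3.45 in uninjured SIS3 hearts and 3.68 in uninjured DMSO hearts. The order of the 4 libraries was then the same, and the ratio of the highest to the lowest was smaller. Without timp2b, the Timp sum was 63.2 FPKM in injured SIS3 hearts and 62.7 in injured DMSO hearts. The Mmp sum without mmp2 was the higher one in injured SIS3 hearts, so the order of the injured libraries in this ratio also rests on mmp2. These are sums of RNA over genes and say nothing of active enzyme.

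**Figure D3:**
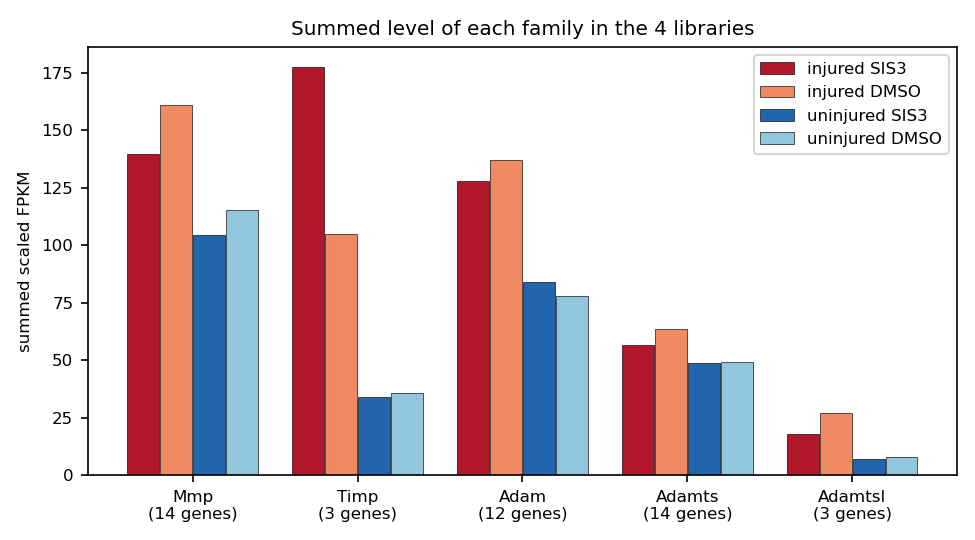
Summed scaled FPKM of each family in the 4 libraries, with the number of genes under each name. The Timp bars are tallest in injured SIS3 hearts (177) and lowest in the uninjured libraries (33.9 and 35.7), while the Mmp bars range between 105 and 161.

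Adam proteases shed proteins from the cell surface. adam8a (ENSDARG00000001452, chromosome 13, bases 24541031 to 24549186, plus strand), whose mammalian relative is found on leukocytes, was at 10.6 FPKM in injured SIS3 hearts, 7.30 in injured DMSO hearts, 1.41 in uninjured SIS3 hearts and 1.13 in uninjured DMSO hearts. Its paralog adam8b (ENSDARG00000057644, chromosome 12, bases 9058361 to 9094839, minus strand) was at 22.5 FPKM in injured SIS3 hearts, 17.98 in injured DMSO hearts, 6.14 in uninjured SIS3 hearts and 3.86 in uninjured DMSO hearts. Both genes were higher in both injured libraries: adam8a by 1.96 in DMSO and 2.27 in SIS3, adam8b by 1.97 and 1.71 on the log2 scale. Their differences with SIS3 after injury were 0.48 and 0.31, within 2-fold. The macrophage and neutrophil markers above moved with injury in the same libraries, and their part in these levels was not tested.

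The adam10 and adam17 copies, general sheddases of receptors and cytokines, did not pass 2-fold in any comparison. adam10a (ENSDARG00000053468, chromosome 7), which sheds Notch and cadherins, was at 48.4 FPKM in injured SIS3 hearts, 66.4 in injured DMSO hearts, 38.8 in uninjured SIS3 hearts and 34.7 in uninjured DMSO hearts, with a change of 0.92 with injury in DMSO and 0.31 in SIS3. Without scaling, the first of these was 1.14. With last-exon entries alone, the changes were 0.58 in DMSO and 0.62 in SIS3. adam10b was at 16.4 FPKM in injured SIS3 hearts, 11.97 in injured DMSO hearts, 14.7 in uninjured SIS3 hearts and 16.1 in uninjured DMSO hearts, and its changes were between -0.40 and 0.42. adam17a, which releases tumour necrosis factor and growth factors of the EGF family, was at 7.86 FPKM in injured SIS3 hearts, 7.84 in injured DMSO hearts, 5.59 in uninjured SIS3 hearts and 4.72 in uninjured DMSO hearts, and adam17b at 6.002 FPKM in injured SIS3 hearts, 5.90 in injured DMSO hearts, 5.14 in uninjured SIS3 hearts and 4.59 in uninjured DMSO hearts. adam9a (ENSDARG00000010070), another sheddase, was at 9.61 FPKM in injured SIS3 hearts, 11.3 in injured DMSO hearts, 5.82 in uninjured SIS3 hearts and 4.25 in uninjured DMSO hearts, and 1.23 higher with injury in DMSO. adam23a, an Adam protein without protease activity that is known from neurons, was not listed in either injured library and was at 1.19 and 1.75 FPKM in uninjured SIS3 and uninjured DMSO hearts. Neural and eye markers were also low after injury: 10 of the 12 measured were not listed in injured DMSO hearts and 4 were not listed in injured SIS3 hearts, while all 12 were listed in uninjured hearts. Of 20269 genes in all, 15691 were listed in injured DMSO hearts and 16657 in injured SIS3 hearts. In uninjured hearts, 18207 were listed in SIS3 and 17437 in DMSO. The part of the neural and eye markers in the level of adam23a was not tested.

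Among the Adamts proteases that cut proteoglycans such as versican and aggrecan, adamts8a (ENSDARG00000007709, chromosome 5, bases 29555681 to 29576817, minus strand) had the largest change. It was at 20.4 FPKM in injured SIS3 hearts, 23.2 in injured DMSO hearts, 4.63 in uninjured SIS3 hearts and 3.79 in uninjured DMSO hearts. Both injured libraries were above both uninjured ones, with changes of 2.34 in DMSO and 1.93 in SIS3. adamts1 was at 7.92 FPKM in injured SIS3 hearts, 7.40 in injured DMSO hearts, 4.14 in uninjured SIS3 hearts and 4.76 in uninjured DMSO hearts, within 2-fold, summed over entries on both strands. adamts5 was at 0 FPKM in injured SIS3 hearts, 0.72 in injured DMSO hearts, 0.87 in uninjured SIS3 hearts and 1.53 in uninjured DMSO hearts, so injured SIS3 hearts did not list it. adamts9 was at 2.18 FPKM in injured SIS3 hearts, 2.21 in injured DMSO hearts, 4.61 in uninjured SIS3 hearts and 3.67 in uninjured DMSO hearts, and adamts15a at 8.03 FPKM in injured SIS3 hearts, 8.64 in injured DMSO hearts, 13.2 in uninjured SIS3 hearts and 12.2 in uninjured DMSO hearts. The injured libraries were the lower ones for both, short of 2-fold on the log2 scale with 1 FPKM added. The level of adamts9 was 2.11-fold lower in injured SIS3 hearts than in uninjured SIS3 hearts, and with 0.1 FPKM added that change was -1.05.

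Of the procollagen-processing Adamts genes, adamts3 (ENSDARG00000060127) was at 3.61 FPKM in injured SIS3 hearts, 3.37 in injured DMSO hearts, 1.09 in uninjured SIS3 hearts and 1.06 in uninjured DMSO hearts, with changes of 1.09 in DMSO and 1.14 in SIS3. adamts2a and adamts14 did not pass 2-fold on the log2 scale with 1 FPKM added. The level of adamts2a was 2.39-fold lower in uninjured SIS3 hearts than in uninjured DMSO hearts. adamts14 was at 0.89 FPKM in uninjured SIS3 hearts and not listed in uninjured DMSO hearts. adamts12 (ENSDARG00000067549, chromosome 5, bases 8327661 to 8406065, minus strand), a protease of cartilage matrix proteins, was at 2.24 FPKM in injured SIS3 hearts, 5.604 in injured DMSO hearts, 0.81 in uninjured SIS3 hearts and 0.83 in uninjured DMSO hearts. It was highest in injured DMSO hearts, 1.85 above uninjured DMSO hearts, and its change with SIS3 after injury was -1.03. That last change was -0.79 with last-exon entries alone, short of 2-fold. adamts7, a close relative of adamts12, was at 4.40 FPKM in injured SIS3 hearts, 5.77 in injured DMSO hearts, 10.1 in uninjured SIS3 hearts and 11.3 in uninjured DMSO hearts, lower in both injured libraries, with changes of -0.86 in DMSO and -1.04 in SIS3, and the second was -0.98 without scaling. adamts17 was at 0.76 FPKM in injured SIS3 hearts, 0 in injured DMSO hearts, 3.29 in uninjured SIS3 hearts and 2.65 in uninjured DMSO hearts, and injured DMSO hearts did not list it.

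The Adamts-like proteins lack the protease domain and bind the matrix. adamtsl7 (ENSDARG00000055439, chromosome 1, bases 20883737 to 20906282, minus strand) was at 14.6 FPKM in injured SIS3 hearts, 24.2 in injured DMSO hearts, 0.56 in uninjured SIS3 hearts and 0.53 in uninjured DMSO hearts. It was near the threshold of description in both uninjured libraries and among the higher members in both injured ones. Its change with injury was 4.04 in DMSO and 3.32 in SIS3, and 13 and 46 of the 15425 genes were higher by more. Its change with SIS3 after injury was -0.69. The epicardial and fibroblast markers summed to 1048 FPKM in injured SIS3 hearts, 1417 in injured DMSO hearts, 381 in uninjured SIS3 hearts and 405 in uninjured DMSO hearts. Of the 15 measured, 8 were higher and 0 lower with injury in DMSO, against 6.63% and 9.93% of all genes. With injury in SIS3, 7 were higher and 1 lower, against 6.26% and 7.45%. The part of the epicardial and fibroblast markers in the level of adamtsl7 was not tested. adamtsl5 was at 2.63 FPKM in injured SIS3 hearts, 1.86 in injured DMSO hearts, 5.55 in uninjured SIS3 hearts and 6.51 in uninjured DMSO hearts, -1.39 with injury in DMSO and -0.85 with injury in SIS3.

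**Figure D4:**
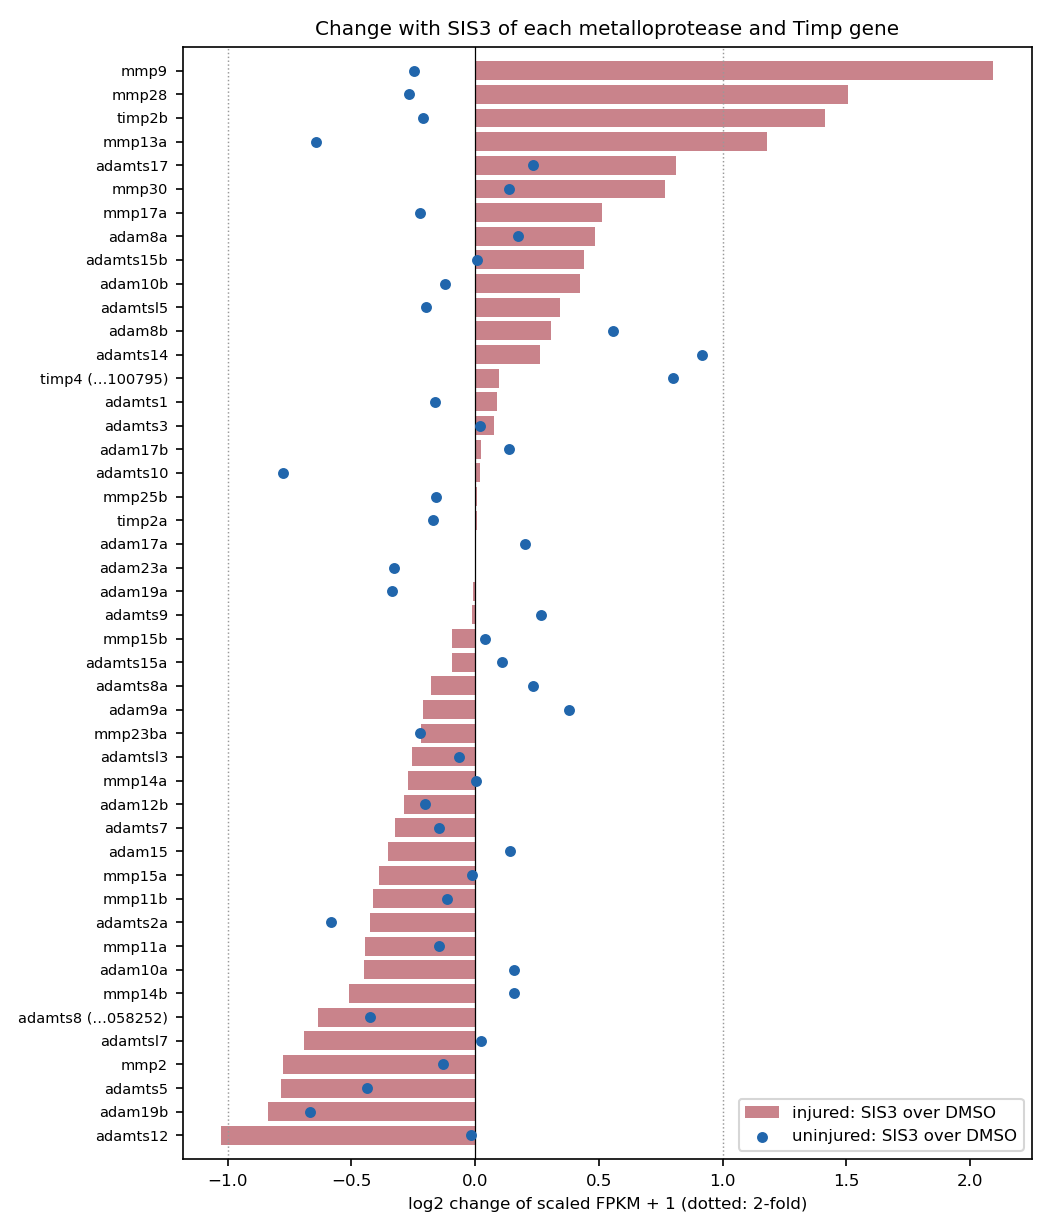
Log2 change with SIS3 of each of the 46 genes, as bars for injured hearts and points for uninjured hearts. Bars of mmp9, mmp28, timp2b and mmp13a pass the upper dotted line at 2-fold and that of adamts12 passes the lower one, while all points lie between the lines.

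Several members are direct neighbours in the genome, with no listed gene between them. adamts8a and adamts15a lie 2039 bases apart on chromosome 5 of GRCz10 on opposite strands, and their changes with injury in DMSO were 2.34 and -0.45. mmp13a and mmp30 lie 32686 bases apart on chromosome 10 on the same strand, and their changes with injury in SIS3 were 2.49 and -0.24. adamts1 and adamts5 lie 10336 bases apart on chromosome 1, the described timp4 gene and the other one 3353 bases apart on chromosome 11, and adamts15b and the second adamts8 gene (ENSDARG00000058252) 4314 bases apart on chromosome 15.

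The tables hold transcript events, so the use of exons can be read for some members. Of the 46, 38 had 1 first exon and 8 had more, and 12 had an event within the gene. The upstream first exon of mmp13a, bases 38649905 to 38650040, made up 77.6% of its first-exon FPKM in injured SIS3 hearts, 77.8% in injured DMSO hearts, 34.1% in uninjured SIS3 hearts and 92.7% in uninjured DMSO hearts. In uninjured SIS3 hearts that share rests on a total of 1.43 FPKM. For mmp23ba an exon with alternative ends had its longer form in 90.1% of its FPKM in injured SIS3 hearts, 79.0% in injured DMSO hearts, 87.7% in uninjured SIS3 hearts and 86.3% in uninjured DMSO hearts. The retained intron of adam8a was at 0.12 FPKM in injured SIS3 hearts, 0.13 in injured DMSO hearts, 0.09 in uninjured SIS3 hearts and 0.09 in uninjured DMSO hearts, which was 1.12% of its retained and spliced forms together in injured SIS3 hearts, 1.78% in injured DMSO hearts, 6.06% in uninjured SIS3 hearts and 7.33% in uninjured DMSO hearts.

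The plasminogen system, which activates several metalloproteases, was read as a list of 10 genes, of which 6 were measured. In injury in DMSO 2 were higher and 2 lower, against 6.63% and 9.93% of all genes. In injury in SIS3 4 were higher and 1 lower, against 6.26% and 7.45%. With SIS3 after injury 3 were higher, against 3.55%. plat, which encodes tissue plasminogen activator, was at 18.1 FPKM in injured SIS3 hearts, 23.7 in injured DMSO hearts, 2.64 in uninjured SIS3 hearts and 2.26 in uninjured DMSO hearts, higher in both injured libraries. serpinf2b, which encodes the plasmin inhibitor antiplasmin, a protein made in liver, was at 34.3 FPKM in injured SIS3 hearts, 3.31 in injured DMSO hearts, 1.87 in uninjured SIS3 hearts and 3.92 in uninjured DMSO hearts, highest in injured SIS3 hearts like the liver markers, and their part in it was not tested.

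Of 7 astacin and related genes, 3 were higher and 1 lower in each injury comparison. Over all genes, 6.63% were higher and 9.93% lower with injury in DMSO, and 6.26% and 7.45% with injury in SIS3. pcolcea, which enhances procollagen processing, was at 242 FPKM in injured SIS3 hearts, 293 in injured DMSO hearts, 68.1 in uninjured SIS3 hearts and 83.5 in uninjured DMSO hearts, and bmp1a, the procollagen C-proteinase, at 30.7 FPKM in injured SIS3 hearts, 31.1 in injured DMSO hearts, 14.5 in uninjured SIS3 hearts and 12.4 in uninjured DMSO hearts. Of 20 measured matrix substrates, 7 were higher and 5 lower with injury in DMSO. With injury in SIS3, 7 were higher and 4 lower, against the same shares of all genes. fn1b, which encodes fibronectin, was at 455 FPKM in injured SIS3 hearts, 440 in injured DMSO hearts, 81.4 in uninjured SIS3 hearts and 78.7 in uninjured DMSO hearts, higher in both injured libraries, and col4a1, of basement membrane, was at 15.9 FPKM in injured SIS3 hearts, 20.9 in injured DMSO hearts, 55.0 in uninjured SIS3 hearts and 68.2 in uninjured DMSO hearts, lower in both. None of these 20 passed 2-fold with SIS3 after injury.

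Of 21 measured ligands and receptors cut by Adam proteases, none was higher and 5 were lower with injury in DMSO, against 6.63% and 9.93% of all genes. With injury in SIS3, 1 was higher and 6 lower, against 6.26% and 7.45%. notch1b, a receptor of the endocardium, was at 12.7 FPKM in injured SIS3 hearts, 12.1 in injured DMSO hearts, 28.7 in uninjured SIS3 hearts and 32.4 in uninjured DMSO hearts. The activators and convertases had 1 of 10 lower with injury in DMSO (rhbdf1b) and none past 2-fold otherwise, and neither of the 2 measured inhibitors, reck and tfpi2, passed 2-fold. Among 21 measured regulators of metalloprotease transcription, 4 were higher and 2 lower with injury in DMSO. With injury in SIS3, 7 were higher and 1 lower, against the same shares of all genes. il11a, a cytokine, was at 29.0 FPKM in injured SIS3 hearts, 24.7 in injured DMSO hearts, 2.10 in uninjured SIS3 hearts and 2.21 in uninjured DMSO hearts, and fosl2, a subunit of AP-1, at 15.0 FPKM in injured SIS3 hearts, 17.4 in injured DMSO hearts, 3.42 in uninjured SIS3 hearts and 3.36 in uninjured DMSO hearts. il1b, the interleukin known to induce mmp9 and mmp13, was at 3.26 FPKM in injured SIS3 hearts, 0.63 in injured DMSO hearts, 0 in uninjured SIS3 hearts and 0.60 in uninjured DMSO hearts, highest in injured SIS3 hearts, and 1.38 higher there than in injured DMSO hearts on the log2 scale. These levels are low, and the part of il1b in the levels of mmp9 and mmp13a was not tested.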

How the data were processed

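RNA was measured by sequencing in 4 zebrafish heart libraries, 1 a group, grouped from the labels. The values are FPKM of transcript events, computed by the authors and used as deposited. GRCz10 is the build in the submitters' processing notes, which also list HTSeq 0.6.1, HISAT2 2.0.5 and CASAVA 1.8 with no roles. What software made the tables was not given in the sources used here. Planning had assumed gene or transcript FPKM, so a gene level was built as the larger of the summed first-exon and last-exon FPKM after repeats were removed. Only values above 0 are listed; a gene not listed was set to 0, which can be a failed estimate, and no fold is given against it. Low values were not multiples of a read step, so counts could not be recovered, depth is unknown and no interval is given.

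Scaling between libraries used the median of ratios, with log2 factors of 0.05 (injured SIS3), 0.11 (injured DMSO), -0.02 (uninjured SIS3) and -0.11 (uninjured DMSO). Changes are differences of log2(scaled FPKM + 1) and were called at 2-fold (python 3.11.15, numpy 2.4.6, pandas 2.3.3), after a check on simulated data. That check used genes of at least 1 FPKM with no unlisted values, and read the recovery of set changes at 5 FPKM or more. It does not cover the recovery of changes at lower levels or against unlisted values. Symbols in capitals were given to zebrafish copies by neighbouring genes in RefSeq GRCz12tu (at least 3 shared among 12 on each side). This named 35 members and left 3 copies untold apart, both timp4 genes and 1 adamts8 gene. Of the 35, adam17a and mmp15b took the copy left once the other was placed, where fewer shared neighbours were enough. Of 69 gene IDs with symbols of the rule, 10 were listed in no table. With 1 library a group no test was made. Values in all libraries are given for members past 2-fold in any comparison, those with a mean of at least 20 FPKM, and a fixed list of well-known members. Outside this rule, mmp30 and adamts15a are also given in all libraries, and a few others by single values. The rest are given by ranges and counts. From each pathway list up to 4 genes with the largest change among those past 2-fold could be named. The members and lists were chosen with earlier results of these data known. Alternatives changed the pseudocount, scaling, filter, event type and, after seeing the data, strand. One gene of the plasminogen list is not reported here by name.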

Additional observations from a re-analysis of the deposited data

Results flagged for a closer look

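mmp13a was singled out because its change with SIS3 had opposite signs after injury and without it. It was 1.18 higher on the log2 scale in injured SIS3 hearts (12.7 FPKM) than in injured DMSO hearts (5.03 FPKM), and -0.64 in uninjured SIS3 hearts (1.43 FPKM) against uninjured DMSO hearts (2.80 FPKM). With 5 FPKM added, the change after injury was 0.82. The first exons of mmp13a moved in opposite directions without injury. The upstream one was at 0.49 FPKM in uninjured SIS3 hearts and 2.59 in uninjured DMSO hearts, the downstream one at 0.94 and 0.21. The rule, opposite moves of at least 0.5 on the log2 scale, was set after the member values had been seen. With 1 library a group the difference was not tested.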

How the results depend on the processing

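No paired analysis was possible because each group is 1 library and no result comes from a test. Single changes were followed under the 10 alternatives only for part of the members, in 112 results. These members were those past 2-fold in any comparison, those with a mean of at least 20 FPKM and the fixed list. No called change of a member had another sign under the alternatives. Among the 112 results, 10 values short of 2-fold did, all with a reported change of at most 0.16. Under the alternative the change could be larger, though 0 of them passed 2-fold. The largest was adamts12 with SIS3 without injury, at -0.02 as reported and 0.86 with last-exon events alone. Single changes of the remaining members were not followed. With a pseudocount of 5 FPKM, 6 members were higher and 0 lower with injury in DMSO (11 and 4 as reported), against 2.26% and 2.77% of all genes. With injury in SIS3, 8 were higher and 0 lower (10 and 3), against 2.57% and 1.66%, so the order of the injury comparisons by count turned round. With SIS3 after injury, 2 were higher and 0 lower (4 and 1), against 1.1% and 0.292%. With a pseudocount of 0.1 FPKM, 9 were lower with injury in SIS3, against 12.8% of all genes. At that setting 7 were higher and 4 lower with SIS3 after injury, against 7.73% and 4.21%. Without injury, 2 were higher and 3 lower with SIS3 (0 and 0 as reported), against 5.1% and 3.99%. When members needed a mean of 1 FPKM, 2 of 36 were lower with injury in DMSO, against 8.70% of all genes. When they needed 5 FPKM, of 21 left 0 were lower with injury in DMSO, 1 with injury in SIS3 and 0 with SIS3 after injury, against 6.98%, 4.50% and 0.786%. Last-exon events alone left 0 of 40 members lower with SIS3 after injury, against 1.83% of all genes. First-exon events alone gave 1 of 43 lower with SIS3 without injury, against 2.13%. Of 33 called changes of single members, 15 held under every alternative run and 18 did not, mostly those of low level under the pseudocount of 5 FPKM. A call counted as held where an alternative left its member out. mmp13a, for one, has no last-exon entry, and the filter at 5 FPKM gave 76 of the 112 results. The calls of timp2b that held with last-exon events rest on its plus-strand entry alone. The unknown depth limits every value near 0, and 1 library a group limits every difference.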

Other observations

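Some members differed in which first exon was listed, at low levels. adamts12 used 3 first exons: the upstream one made up 57.7% of its FPKM in injured SIS3 hearts and 57.7% in injured DMSO hearts, was not listed in uninjured SIS3 hearts and was the only one listed in uninjured DMSO hearts. A first exon of adam8a with a longer end was listed in injured SIS3 hearts alone, at 2.85 FPKM or 26.9% of its first-exon level. An exon of 75 bases in adam8b was included in 90.7% of its FPKM in injured SIS3 hearts, 100% in injured DMSO hearts, 69.1% in uninjured SIS3 hearts and 100% in uninjured DMSO hearts. The skipped form was listed at 2.08 FPKM in injured SIS3 hearts and 1.90 FPKM in uninjured SIS3 hearts, and in neither DMSO library, a difference that was not tested.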
